A study of Mus musculus with 6 samples.

Results

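To describe chromatin accessibility at the genes of the ISG15 pathway, ATAC-seq peaks assigned to Isg15, Uba7, Ube2l6, Herc6, Trim25 and Usp18 were compared between 3 oil and 3 tamoxifen libraries of mouse leukemia cells. ATAC-seq marks open DNA by the insertion of sequencing adapters by a transposase. A peak belonged to a gene if its nearest transcription start site (TSS) was that of the gene, at a distance of at most 100000 bp. This rule gave 59 peaks of the 175929 in the table, namely 15 for Usp18, 2 for Isg15, 12 for Uba7, 8 for Ube2l6, 7 for Herc6 and 15 for Trim25. The farthest lay 29676 bp from its TSS, so no peak of these genes (0) fell outside the limit. All cells carried the AE9a oncogene (a truncated AML1/ETO fusion) with GFP. Before treatment they had 1 floxed and 1 wild-type Usp18 allele (Usp18+/f), and the paper names the cells of the tamoxifen group Usp18+/Δ. All also carried UBCER-Cre, a Cre fused to an estrogen receptor domain, driven by a broadly active promoter and activated by tamoxifen. The leukemia cells of the oil group carried the same transgene, so the control was not free of Cre. Recipient mice that had become ill received oil or tamoxifen, and GFP+ Lin- c-Kit+ splenocytes were sorted 3 days after the first injection. Oil 1, oil 2 and oil 4 formed the control group, and tamoxifen 1, tamoxifen 3 and tamoxifen 4 the treated group. The labels do not say whether the libraries came from separate mice. The study's methods name a mouse number for the sorted cells that equals the libraries of each group, but elsewhere the assay is described as done in duplicate, so that p-values here measure the spread between libraries, which may be technical. Effects of tamoxifen itself, of active Cre and of losing 1 Usp18 allele cannot be told apart in this design.

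ISG15 is a ubiquitin-like protein that interferon induces strongly. UBA7 (also known as UBE1L) activates it, UBE2L6 (UbcH8) carries it, and E3 ligases attach it to target proteins. HERC6 is the main such ligase in mice, and TRIM25 can also act as an ISG15 ligase besides its role as a ubiquitin ligase in viral RNA sensing. USP18 removes ISG15 from its targets and, independently of this activity, holds back signalling at the type I interferon receptor. These genes are interferon-stimulated, and their classical control element is the interferon-stimulated response element (ISRE), to which transcription factors activated by interferon bind.

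The promoter of Isg15 is shown because it holds the densest run of ISRE letters found in these peaks, and that of Uba7 because its start held no exact match to them. Both are the 250 bases before the RefSeq start, on the GRCm38.p6 assembly, and 5 of the 6 genes (all but Usp18) had such an entry. Capitals in Isg15 mark 3 overlapping ISRE matches (GAAANNGAAA, where N is any base) from position -78 to -57 before the start. The capitals of Uba7 mark an AP-1 match (TGANTCA) from -152 to -146. Only exact matches were searched. Stretches close to the ISRE letters on either strand, such as tttcacttttggtttc near the end of the Uba7 sequence, stay in lower case. They lie at chr4:156200819-156201068 on the minus strand and at chr9:107975317-107975566 on the plus strand.

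Isg15 promoter: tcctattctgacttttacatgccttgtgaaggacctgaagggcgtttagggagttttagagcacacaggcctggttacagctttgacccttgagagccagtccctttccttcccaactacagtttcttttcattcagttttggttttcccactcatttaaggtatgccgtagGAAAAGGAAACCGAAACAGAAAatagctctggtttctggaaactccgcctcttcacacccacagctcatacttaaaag

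Uba7 promoter: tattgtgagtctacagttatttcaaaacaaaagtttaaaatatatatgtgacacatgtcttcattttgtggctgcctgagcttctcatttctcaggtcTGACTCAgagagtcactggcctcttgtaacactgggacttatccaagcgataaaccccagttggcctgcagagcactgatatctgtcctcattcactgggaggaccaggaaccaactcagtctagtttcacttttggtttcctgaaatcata

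For Herc6 and Ube2l6 the ISRE letters lay not before the start but in the next accessible peak inside the gene, 503 bp and 547 bp past the TSS. These stretches, at chr6:57581395-57581471 and chr2:84799313-84799368 on the plus strand, are printed with each match in capitals. Matches on the other strand are read as their reverse complement.

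Herc6 at +503: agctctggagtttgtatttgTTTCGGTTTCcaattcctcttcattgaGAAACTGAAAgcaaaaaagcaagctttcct

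Ube2l6 at +547: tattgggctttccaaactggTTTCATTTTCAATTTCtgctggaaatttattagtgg

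An ISRE match on either strand was found in 7 of the 59 peaks (11.9%), compared with 3.09% of the 175738 peaks on assembled chromosomes. Within windows of 300 bases around each peak center the shares were 11.9% and 3.37%. Usp18 had 3 of these peaks (+7, +5376 and +26824 bp), Herc6 had 2 (+503 and +1592 bp), and Isg15 (-14 bp) and Ube2l6 (+547 bp) had 1 each. Neither Uba7 nor Trim25 had a peak with an exact match (0 peaks of each). As these genes are known for their interferon response, the share describes the sequence and was not tested. Other motifs were searched in the same way, also on both strands and without regard to overlap. The interferon-gamma-activated sequence (GAS), TTCNNNGAA, was present in 8.47% of the member peaks and in 7.09% of all peaks. For AP-1, bound by Fos and Jun proteins, the letters TGANTCA gave shares of 11.9% and 8.87%. GATA factors, searched as AGATAA, gave 18.6% and 19.1%, and the core Runx motif, which AE9a itself recognizes, gave 6.78% and 9.03% as TGTGGTT. PU.1, a myeloid transcription factor, gave 3.39% and 4.45% with the letters GAGGAAGT. In RefSeq windows from 250 bases before to 50 after the start, the ISRE form was in 3.44% of 32851 windows and, of the 5 entries for these genes, in Isg15 only.

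**Figure D1:**
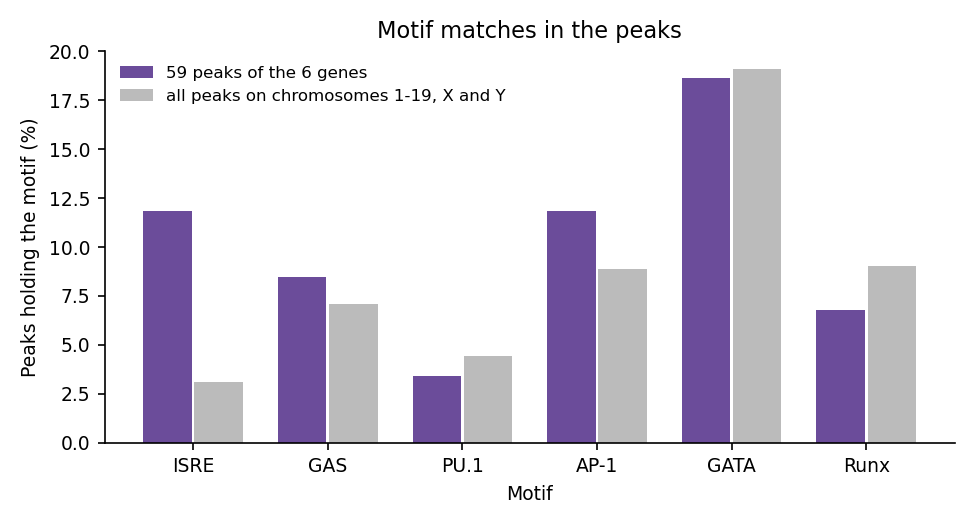
Share of peaks (%) that hold each motif on either strand, for the 59 peaks of the 6 genes and for all peaks on assembled chromosomes. The ISRE bar of the genes stands at 11.9% against 3.09%, while the GATA bars stand at 18.6% and 19.1%.

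Some properties of the whole table bear on these values. Libraries held 57.4 to 74.7 M tags (1 M is 1000000), of which 17.5 to 21.1 M lay in peaks, and tags at the median peak were 45 to 57. Pairs of oil libraries were close to counting error (chi-square 1.03 to 1.22 per degree of freedom). Tamoxifen 4 lay nearer to the oil libraries (1.73 to 1.96) than to the other tamoxifen libraries (2.66 to 2.68). The label was checked against marker genes: all 7 AE9a blast identity genes, including Kit and Runx1, had a peak within 3000 bp of the TSS. Such a peak was present for 3 of 7 T cell genes, 2 of 6 B cell genes, 7 of 7 erythroid genes, 0 of 7 mature myeloid genes and 1 of 5 NK and dendritic genes, and Camp, Ms4a1 and Ncr1 had no peak at all (0). Summed over a list, normalised tags ran from 1095 to 1245 after oil and from 1283 to 1413 after tamoxifen for T cell genes, from 1232 to 1305 and 1344 to 1451 for mature myeloid genes, and from 3383 to 3475 and 3784 to 3795 for NK and dendritic genes. Erythroid genes ran from 7974 to 8268 after oil and 7296 to 7854 after tamoxifen, blast identity genes from 31375 to 32846 and 33098 to 36372, and B cell genes overlapped (2593 to 2681 and 2392 to 2751). These marker levels moved with the groups, and their part in the results below was not tested.

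Levels are given as normalised tags, which are tags divided by the DESeq2 size factor of the library. Changes are log2 ratios of tamoxifen to oil with their SE from the DESeq2 Wald test over all 175929 peaks, and adjusted p is by Benjamini-Hochberg over all of them. A peak was called at a fold over 2 and an adjusted p under 0.05. In sorted cells measured in bulk, fewer cells with an open site and less opening per cell cannot be told apart.

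Only 2 of the 59 peaks were called, both inside Uba7 and both lower after tamoxifen. The background was 0.654% of all peaks called in either direction, 0.0659% lower and 0.588% higher. The same 2 peaks made up those at an adjusted p under 0.05 regardless of fold (background 1.39%). At an unadjusted p under 0.05 there were 4 member peaks, or 6.78%, below the 9.02% of all peaks. The 3 tamoxifen values lay wholly above or below the 3 oil values in 11 member peaks (18.6%, 4 higher and 7 lower) and in 21.9% of all peaks. The median log2 change was -0.020 over the 59 peaks and -0.0013 over all peaks, with quartiles of -0.17 and 0.09 against -0.18 and 0.19. Leaving out the called peaks, changes ran from -0.65 to 0.45 and all 57 were smaller than 2-fold. For 51 of the 59 peaks the 95% confidence interval itself lay within a 2-fold change either way.

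**Figure D2:**
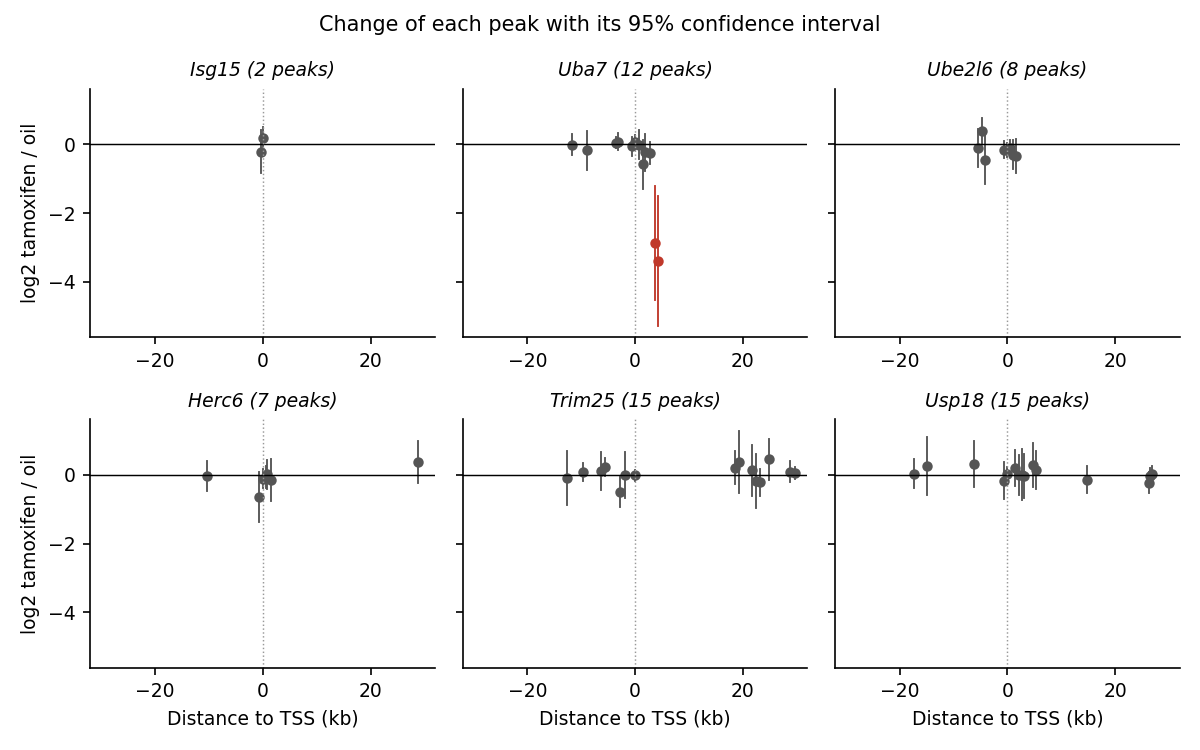
Log2 ratio of tamoxifen to oil (y) for each of the 59 peaks against its distance to the TSS in kb (x), 1 panel per gene. Bars are 95% confidence intervals and red marks the called peaks. Both Uba7 peaks past +3 kb lie at -2.87 and -3.39, and the other 57 points lie between -0.65 and 0.45.

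Isg15, the modifier itself, had 2 peaks, both in the peak lists of both groups. Its start site peak (-14 bp, chr4:156200726-156200938), which holds the ISRE run printed above, had 110, 135 and 125 normalised tags in oil 1, oil 2 and oil 4 and 142, 123 and 154 in tamoxifen 1, tamoxifen 3 and tamoxifen 4. The groups overlapped, with tamoxifen 3 below oil 2 and oil 4. Its log2 change was 0.18 ± 0.17 (SE, n = 3 and 3 libraries), with a 95% interval of -0.16 to 0.52 and an adjusted p of 0.898 (DESeq2). The peak at -387 bp was smaller, with a mean of 37.3 tags and a log2 change of -0.22 ± 0.32 (SE).

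Uba7, the activating enzyme, had its 12 peaks between -11702 and +4300 bp, of which the 4 farthest upstream lie within the neighboring gene Traip. The start site peak (-68 bp, chr9:107975389-107975610) held 451, 468 and 437 tags after oil and 488, 498 and 435 after tamoxifen. These groups overlapped, and the change was 0.07 ± 0.10 (SE, 95% interval -0.13 to 0.26). The highest peak of the 12, at -3608 bp in the 3' UTR of Traip, held 753, 707 and 696 tags after oil and 747, 786 and 706 after tamoxifen. It too overlapped between groups, with a change of 0.05 ± 0.08 (SE).

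Both called peaks lay near the middle of the gene. The peak at +3754 bp (chr9:107979063-107979580) spans exons 14 to 16 of the 24 exons in RefSeq, and 59.5% of its 518 bases are exonic. It had 99.8, 14.6 and 118 normalised tags in oil 1, oil 2 and oil 4 and 11.6, 8.36 and 11.2 in tamoxifen 1, tamoxifen 3 and tamoxifen 4. The log2 change was -2.87 ± 0.85 (SE, 95% interval -4.53 to -1.21), a 7.32-fold fall, at an adjusted p of 0.0495. The peak at +4300 bp (chr9:107979760-107979974) overlaps exon 17, and 34.9% of its 215 bases are exonic. It had 46.3, 8.29 and 62.7 tags after oil and 2.42, 5.57 and 3.26 after tamoxifen. Its log2 change was -3.39 ± 0.97 (SE, 95% interval -5.29 to -1.50), a 10.5-fold fall, at an adjusted p of 0.0376. In both peaks oil 1 and oil 4 were high, whereas oil 2 lay just above the tamoxifen libraries, so that the groups did not overlap but 1 control library was close to the treated group.

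The first 300 bases of the +3754 peak and the whole +4300 peak are printed below on the plus strand, which is also the strand of Uba7, with exon bases in capitals. The printed stretches are chr9:107979063-107979362 and chr9:107979760-107979974, and neither peak held any of the 6 motifs searched (0 matches).

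Uba7 at +3754: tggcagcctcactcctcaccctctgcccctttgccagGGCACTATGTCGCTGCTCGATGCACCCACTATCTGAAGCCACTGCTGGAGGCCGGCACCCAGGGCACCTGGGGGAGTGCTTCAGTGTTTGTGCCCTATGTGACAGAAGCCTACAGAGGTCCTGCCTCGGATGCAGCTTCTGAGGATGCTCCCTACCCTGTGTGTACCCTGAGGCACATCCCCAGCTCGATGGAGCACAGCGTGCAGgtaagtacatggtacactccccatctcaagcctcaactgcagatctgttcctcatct

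Uba7 at +4300: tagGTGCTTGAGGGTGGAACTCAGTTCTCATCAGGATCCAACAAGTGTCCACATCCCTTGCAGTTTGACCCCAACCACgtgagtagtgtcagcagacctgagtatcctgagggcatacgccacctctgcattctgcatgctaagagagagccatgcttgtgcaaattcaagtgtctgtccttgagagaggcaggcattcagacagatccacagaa

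The call at +3754 bp of Uba7 depended on single libraries, as did that at +4300 bp in the fits that gave it an adjusted p. Without oil 2, the change at +3754 was -3.36 ± 0.39 (SE) with an adjusted p of 1.96e-13, while without oil 1 or oil 4 the adjusted p was 0.458 or 0.441. Leaving out tamoxifen 1, tamoxifen 3 or tamoxifen 4 gave 0.286, 0.501 or 0.109. At +4300 the change ran from -3.89 to -2.86 over the 6 fits with 1 library left out. In 4 of these fits DESeq2 gave no adjusted p (unadjusted p 5.61e-05 without oil 1, 2.31e-10 without oil 2, 0.000516 without oil 4 and 0.00152 without tamoxifen 3), and in the others, without tamoxifen 1 or tamoxifen 4, it was 0.297 or 0.0944. The quasi-likelihood test of edgeR kept both changes (-2.85 and -3.38) but gave adjusted p of 0.245 and 0.185.

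The other peaks inside Uba7 did not share this difference between oil libraries. The wide peak at +2746 bp, immediately upstream of the called pair, had 190, 217 and 215 tags after oil and 139, 210 and 178 after tamoxifen, with a change of -0.24 ± 0.16 (SE). At +1464 bp the tags were 27.6, 30.7 and 38.5 after oil and 20.8, 19.5 and 23.7 after tamoxifen, which did not overlap but gave an adjusted p of 0.727. Both called peaks, together with that at +1464 bp, were in the peak list of the oil group only. These peaks entered the comparison only through the group where they were higher, so their direction is not independent of how they were found.

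**Figure D3:**
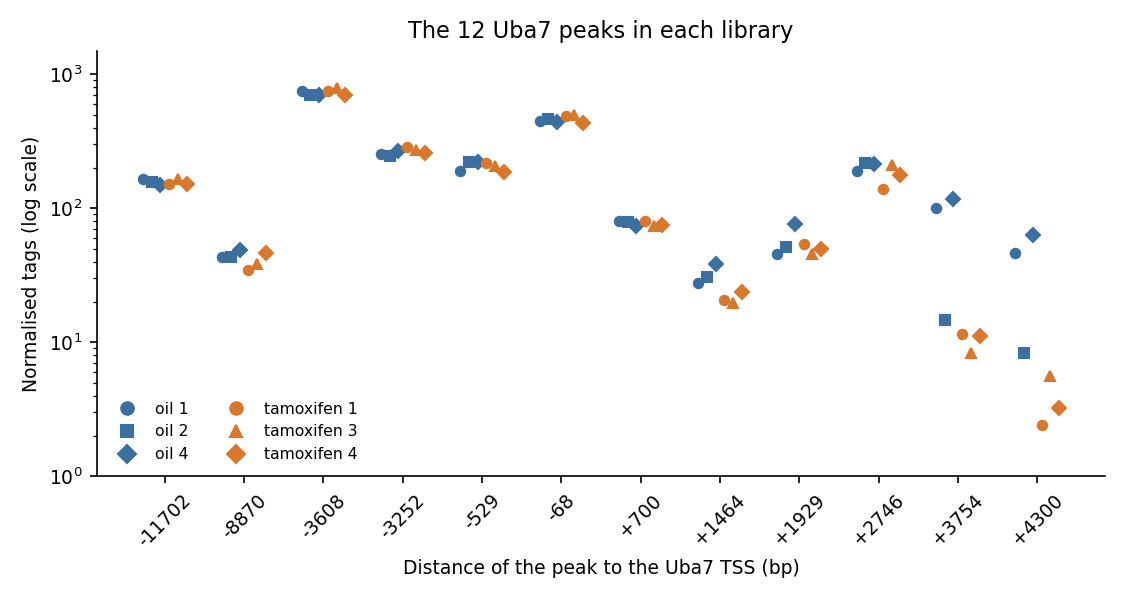
Normalised tags (log scale) of the 12 Uba7 peaks in each of the 6 libraries, ordered by distance to the TSS in bp. In the peaks at +3754 and +4300 bp, oil 1 and oil 4 lie above 46 tags and oil 2 and the tamoxifen libraries below 15, whereas the oil libraries show no such split at the other 10 peaks.

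The peaks most like that at +4300 bp were sought by the root mean square difference of centered log2(normalised tags + 1) over the 6 libraries. The sister peak at +3754 bp was at 0.46, and of 175790 peaks of other genes none (0) was as close. The nearest 5 were 4 peaks at Hsph1 (0.71 to 0.83), which encodes a heat shock protein of the Hsp110 class, and 1 upstream of Hspa1b (0.82), which encodes inducible Hsp70. The closest of them, 26834 bp past the Hsph1 start, had 55.2, 42.9 and 79.7 tags after oil and 7.73, 8.91 and 10.7 after tamoxifen. There, unlike at Uba7, oil 2 stayed well above every tamoxifen library. A pattern in which oil 1 and oil 4 each exceeded 4 times every other library, was set after the Uba7 values were seen and so holds for both called Uba7 peaks by construction. None (0) of the other peaks met it, among 175929 that all had a mean of at least 10 normalised tags.

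**Figure D4:**
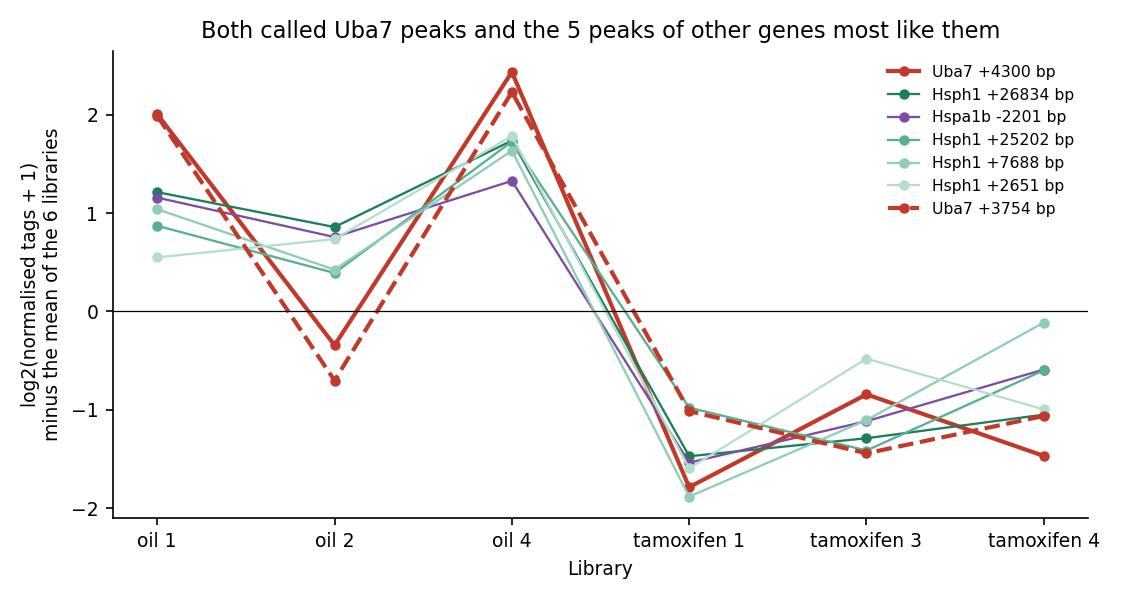
Centered log2(normalised tags + 1) in the 6 libraries for both called Uba7 peaks (red) and the 5 most similar of the compared peaks of other genes. Lines at oil 2 split, with the Uba7 peaks at or below -0.34 and those of Hsph1 and Hspa1b at or above 0.39.

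Ube2l6, the conjugating enzyme, had 8 peaks, and 7 of them had a log2 change below 0. Its start site peak (-21 bp, chr2:84798705-84798910) held 480, 465 and 431 tags after oil and 412, 413 and 406 after tamoxifen. All tamoxifen values lay below all oil values, but the change of -0.16 ± 0.10 (SE, 95% interval -0.35 to 0.04) had an adjusted p of 0.724. The peak with the ISRE letters at +547 bp held 312, 321 and 277 tags after oil and 276, 281 and 291 after tamoxifen, which overlapped (-0.10 ± 0.12, SE). Upstream at -4767 bp (chr2:84793945-84794178), a peak went the other way, with 98.2, 95.6 and 77.5 tags after oil and 109, 121 and 127 after tamoxifen. The groups did not overlap there either, and the change of 0.40 ± 0.19 (SE) had an unadjusted p of 0.0375 and an adjusted p of 0.494.

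Herc6, the main E3 ligase, had 7 peaks without a call. The start site peak (+42 bp, chr6:57580921-57581147) held 253, 226 and 267 tags after oil and 195, 223 and 274 after tamoxifen, so that tamoxifen 4 exceeded all the others and tamoxifen 1 was lowest. Its change was -0.11 ± 0.14 (SE, 95% interval -0.39 to 0.17), and it ran from -0.25 without tamoxifen 4 to -0.00034 without tamoxifen 1. At the ISRE-bearing peak at +503 bp, oil libraries had 137, 154 and 128 tags and tamoxifen libraries 124, 135 and 139, a change of -0.07 ± 0.17 (SE). Upstream of the start at -655 bp lay the lowest change of any uncalled member peak, -0.65 ± 0.37 (SE, adjusted p 0.648), from 29.8, 33.2 and 31.8 tags after oil to 19.3, 16.7 and 24.2 after tamoxifen. That peak too was in the peak list of the oil group only.

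Trim25, the ligase shared with the ubiquitin system, had 15 peaks, 9 of them with a log2 change above 0 and 6 below. Its start site peak (-9 bp, chr11:88999262-88999527) held 651, 662 and 608 tags after oil and 624, 665 and 606 after tamoxifen. These values were nearly the same in both groups, with a change of -0.02 ± 0.09 (SE, 95% interval -0.19 to 0.15). At -2873 bp (chr11:88996295-88996766), in a peak with an AP-1 and a GAS match, tags were 81.6, 90.7 and 92.3 after oil and 62.3, 56.3 and 68.4 after tamoxifen. The groups did not overlap, and the change of -0.50 ± 0.22 (SE) had an unadjusted p of 0.0228 and an adjusted p of 0.396. A large peak 29676 bp past the start, with a mean of 564 tags, was nearly as high as that at the start and changed by 0.04 ± 0.09 (SE).

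Usp18, the protease and the gene targeted in this model, had 15 peaks and no call. Its start site peak (+7 bp, chr6:121245804-121246023) held 458, 415 and 440 tags after oil and 440, 469 and 438 after tamoxifen. The groups overlapped, and the change of 0.03 ± 0.10 (SE, 95% interval -0.16 to 0.23) spans 0. Beyond the 3' end lay 3 adjacent peaks at +26217, +26532 and +26824 bp with means of 158, 325 and 286 tags and changes of -0.23 ± 0.16, -0.03 ± 0.12 and 0.01 ± 0.12 (SE). Over all 15 peaks the changes ran from -0.23 to 0.32 and each interval spanned 0. The position of the floxed exons was not used here, and accessibility here gives no measure of the deletion.

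**Figure D5:**
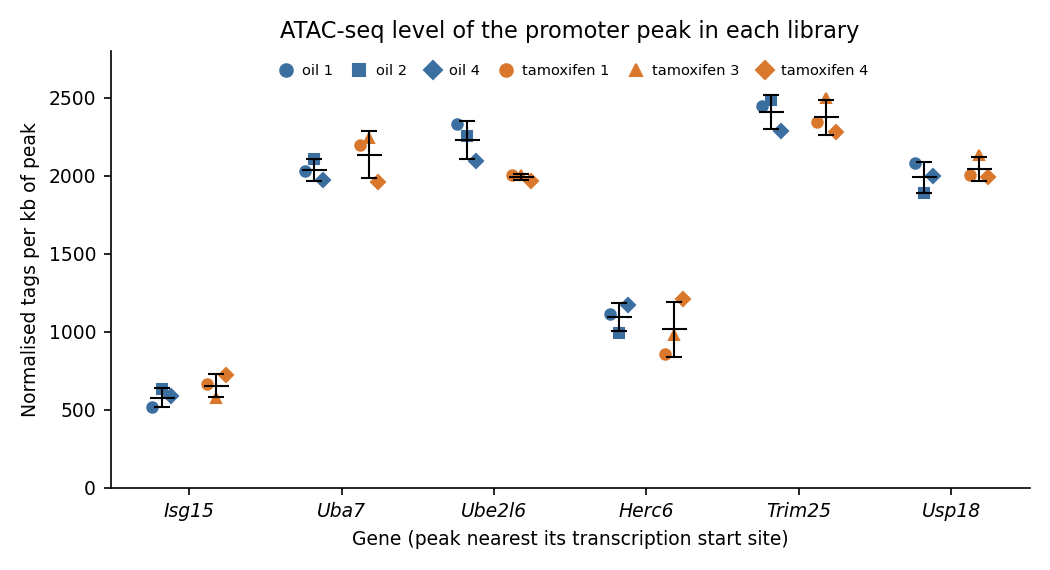
Normalised tags per kb of peak at the start site peak of each gene, with 1 point per library, the group mean and its SD (n = 3 libraries per group). Trim25 is highest and Isg15 lowest, and the groups overlap at every gene other than Ube2l6.

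Per kb of peak, the start sites ranked in the order Trim25, Ube2l6, Uba7, Usp18, Herc6 and Isg15. Trim25 had 2407 ± 107 normalised tags per kb after oil (SD, n = 3) and 2374 ± 113 in the tamoxifen group (SD, n = 3). Ube2l6 followed with 2226 ± 121 and 1992 ± 20.6, Uba7 with 2035 ± 68.5 and 2134 ± 152, and Usp18 with 1990 ± 99.0 and 2041 ± 77.1. Each of these overlapped with the next over the 6 libraries, so the order of neighbors is not resolved. The lowest Trim25 value (2277) did lie above the highest of Uba7 (2243) and of Usp18 (2130). Herc6 lay apart at 1095 ± 91.6 and 1017 ± 177, and Isg15 at 579 ± 58.9 and 655 ± 74.6, with no overlap with the gene above. Among all promoter-proximal peaks (within 3000 bp of a TSS), Trim25 stood at percentile 90.5 and Isg15 at 64.8.

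Summed over all peaks of a gene, tamoxifen libraries had 99.6% of the oil mean at Usp18, 106% at Isg15, 95.5% at Uba7, 91.7% at Ube2l6, 94.9% at Herc6 and 103% at Trim25. Ube2l6 was the only one of these 6 sums without overlap, with 1398, 1415 and 1320 tags after oil and 1206, 1279 and 1303 after tamoxifen. Its exact two-sided permutation p was 0.1, the smallest that 3 against 3 libraries can give, or 0.45 adjusted over the 6 genes. The other exact permutation p-values ran from 0.2 to 0.7. Uba7 summed to 2335 ± 80.7 tags (SD, n = 3) in the oil libraries and 2230 ± 103 (SD, n = 3) in the others. Most of that difference lay in the called peaks, but these were picked for their difference in the same libraries, so the split follows from the choice. Together they held 117 ± 83.1 tags after oil (SD, n = 3) and 14.1 ± 0.27 after tamoxifen (SD, n = 3). Oil 1, oil 2 and oil 4 had 146, 22.9 and 181 of these tags. The other 10 peaks summed to 99.9% of the oil mean. The highest peak took 23.7 to 26.8% of the tags of Usp18 over the 6 libraries, 71.8 to 81.8% of those of Isg15 and 28.9 to 33.7% of those of Uba7. For Ube2l6, Herc6 and Trim25 the ranges were 31.1 to 34.3%, 34.3 to 41.9% and 26.8 to 29.2%.

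Members also differed in how the peaks were found. Of the 59, 46 (78.0%) were in the peak lists of both groups, 8 (13.6%) in that of oil only and 5 (8.47%) in that of tamoxifen only, against 71.4%, 17.4% and 11.2% of all peaks. Within 3000 bp of a TSS lay 44.1% of the member peaks and 30.4% of all. The median member peak was 246 bp wide with 76.8 normalised tags, and the median of all peaks 250 bp with 50.5.

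Among the genes that receive the interferon signal (Ifnar1, Ifnar2, Jak1, Tyk2, Stat2 and Irf9), 110 peaks had a median log2 change of -0.018. Only 1 was called (0.654% of all peaks were), at -33283 bp from the start of Jak1, a kinase bound to the receptor, where tags rose from 26.5, 29.3 and 44.3 after oil to 57.5, 112 and 54.9 after tamoxifen (1.14 ± 0.32, SE, adjusted p 0.0298). Without oil 1, oil 2 or tamoxifen 3 no peak of this or the following lists was called (0). A pair of peaks upstream of Ifnar2, a receptor chain to which USP18 binds, passed the adjusted p at a smaller fold. At -6002 bp tags rose from 149, 139 and 131 after oil to 253, 324 and 193 after tamoxifen (0.88 ± 0.17, SE, adjusted p 0.000149). At -5504 bp the rise was 0.81 ± 0.17 (SE, adjusted p 0.00074). With the Jak1 peak, these made 3 of the 110 peaks at an adjusted p under 0.05 in the DESeq2 fit, against 1.39% of all peaks. At an unadjusted p under 0.05 there were 10 (9.09%), near the 9.02% of all peaks. The start site peaks of these 6 genes had changes of -0.08 to 0.05.

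Other enzymes and receptors linked to ISG15 (Arih1, Ube2e1, Ube2e2, Usp2, Usp5, Usp13, Usp14, Usp16, Usp21, Itgal and Itgb2) had 79 peaks at 9 of 11 genes, with a median of -0.07. In the DESeq2 fit 0 were called or reached an adjusted p under 0.05, and 9 (11.4%) had an unadjusted p under 0.05, near the 9.02% of all peaks. The start site peak of Itgal, a subunit of the LFA-1 integrin that binds extracellular ISG15, held 157, 159 and 190 tags after oil and 222, 266 and 209 after tamoxifen (0.45 ± 0.15, SE). Ubiquitin-pathway relatives of the members (Uba1, Uba6, Ube2l3, Herc1, Herc2, Herc3 and Herc4) had 77 peaks with a median of -0.05, of which 0 were called and 7 (9.09%) had an unadjusted p under 0.05, again near that background.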

How the data were processed

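ATAC-seq was performed on 6 libraries, 3 per group, and groups and replicate numbers were taken from the sample titles. The authors mapped reads to mm10 with Bowtie2 at default settings, called peaks with HOMER findPeaks, merged the lists of both groups and counted tags with annotatePeaks.pl (at most 3 tags per position, without normalisation). Versions are not given in the sources used here. The deposited values are estimated counts in steps of 0.5, and they were rounded to whole numbers. Because peaks were called on the same libraries that are compared, a site open in neither group is absent, and the limit per position caps high peaks. Counting error alone is sizeable at a median of 45 to 57 tags.

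All peaks and libraries were fitted together with DESeq2 1.42.0 (R 4.3.3), following the fold and adjusted p thresholds of the study, and edgeR 4.0.16 was an alternative. Both were tested on simulated data. Sums per gene were compared by exact permutation (scipy 1.17.1). TSS distances recomputed from RefSeq on GRCm38.p6 lay within 2 bp of the deposited ones for 92.9% of 174566 peaks, so sequences were read by the deposited coordinates. Named are, for each gene, the peak nearest the TSS, that with the most tags and each with an unadjusted p under 0.05, then the 5 most similar peaks and, of the pathway lists, each called peak. Peaks that hold an ISRE match, lie beside these, or are singled out for their level or change were added after their values were seen. The members and lists were chosen with earlier results of these data known. In the list of interferon signalling genes, 1 gene is not reported here. Replicate numbers were not used to pair libraries in the main fit. The deviations of same-numbered libraries correlated at -0.044 and 0.051, and those of differently numbered ones at -0.090 to 0.123. As the oil libraries differed by little more than counting error, this check cannot exclude pairing.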

Additional observations from a re-analysis of the deposited data

How the results depend on the processing

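The 2 calls at Uba7 became 0 with the edgeR quasi-likelihood test and 1 with total tags in peaks as size factors, and the counts at an adjusted p under 0.05 were the same as these. With a replicate block on the 4 libraries numbered 1 and 4, both counts were 1: the change at +3754 bp was larger (-3.26, adjusted p 2.17e-05), and that at +4300 bp (-4.29, unadjusted p 5.11e-07) got no adjusted p. With 1 library left out both counts ran from 0 to 1. The 4 member peaks at an unadjusted p under 0.05 became 8 with edgeR, 2 with the replicate block and 2 to 4 with 1 library left out. The share over all peaks is given for the main fit only, so these counts cannot be read as a gain or loss particular to the members. The 1 call in the pathway lists became 0 with the replicate block and 0 to 2 with 1 library left out. Neither called Uba7 peak changed direction in any of the 13 fits. At both, each oil value lay above each tamoxifen value, so leaving out a library could not reverse the direction. Both were also in the peak list of the oil group only, so the constant direction adds no support. The near-zero change at the Usp18 start site was -0.036 with the replicate block and ran from -0.0028 to 0.068 with 1 library left out, and that of Trim25 from -0.057 to 0.011. For summed tags, Usp18 turned to 0.035 within 20000 bp and ran from -0.020 to 0.0097 with 1 library left out, and Isg15 ran from -0.018 (without tamoxifen 4) to 0.18. The median log2 change of the member peaks stayed within the spread between libraries under each of these settings. For the Uba7 peak at +4300 bp, 5 of 13 fits gave no adjusted p (with the replicate block and without oil 1, oil 2, oil 4 or tamoxifen 3), so that it could not be counted there and the lower counts in those fits do not show a lost call at this peak. TMM factors kept both counts at 2. So did the limit of 20000 bp and the filter at a mean of 10 tags, but these say nothing about robustness. Both called peaks lie inside that limit, and the filter left their changes and adjusted p as in the main fit. Over the 59 peaks the median half-width of the 95% interval was 0.44 on the log2 scale. This width goes with an unadjusted p of 0.05. At a typical peak a change had to be larger still to pass the adjusted p, and a call also needed a fold over 2.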
